A study of Mus musculus with 8 samples.

Results

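The matrix metalloproteases (Mmp), their tissue inhibitors (Timp), the membrane-bound Adam proteases, the secreted Adamts proteases and the Adamts-like proteins (Adamtsl) were followed in sorted forelimb cells. Members were all probes whose gene symbol on the array began with Mmp, Timp, Adam, Adamts or Adamtsl followed by a digit, which gave 154 of 45281 probes. They stood for 78 of 19057 named genes, with 21 Mmp, 4 Timp, 32 Adam, 17 Adamts and 4 Adamtsl genes. The rule used gene symbols alone, and the families were taken up with earlier results of these data known.

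The samples were forelimbs of C57BL/6J;129 mouse embryos at E12.5, from which cells with green fluorescence from the Bapx1 (Nkx3-2) locus were sorted. In the 4 samples labelled null (HomoBapx1) both alleles carried EGFP directly after the start codon (Bapx1 tm4.Tlu), which ends the coding sequence. In the 4 samples labelled wildtype (WTBapx1) a single allele carried EGFP, placed with an IRES into the 3′ UTR so that the coding sequence stayed whole (Bapx1 tm2.Tlu). All 8 samples thus had a reporter at the locus, but where it sat and how many copies there were followed the genotype, and what that did to the sorted population cannot be told apart from the loss of Bapx1. The replicates were biological by the methods' account. Each sample was measured on 1 array. Changes are log2 differences of normalized intensity, null minus wildtype, with the standard error of limma's fit, and p-values are from limma with Benjamini-Hochberg adjustment over all 20593 probes tested unless an exact permutation test is named.

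Matrix turnover in the limb bud and in early cartilage depends on these families. Mmp enzymes cut collagens and other matrix proteins and are held in check by Timp proteins, Adam proteins shed growth factors, ligands and receptors from the cell surface, and Adamts enzymes cut proteoglycans such as versican and aggrecan, procollagens and microfibril proteins. Adamtsl proteins share the accessory domains of Adamts enzymes but lack the protease domain. In the limb, versican-cutting Adamts enzymes take part in the loss of the web between digits, and collagen-cutting Mmp enzymes open the cartilage matrix at hypertrophy.

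The targeted gene was the first to be set against the labels. A first Bapx1 probe lay at 7.75 to 8.09 on the arrays labelled null and at 4.46 to 4.53 on those labelled wildtype, and a second at 7.36 to 7.71 and at 4.41 to 4.61. Both were detected on 4 arrays labelled null and on 0 labelled wildtype, so that the signal was at least 6.82-fold and 5.56-fold higher in the libraries labelled null (bright mean over the larger of the dim signal and the lowest detected signal of each array). Where these probes lie on the transcript and relative to the inserts is unknown. The null locus was still transcribed to give EGFP, so a signal on the arrays labelled null is possible. By the design above, samples labelled wildtype also kept an allele without an insert, and their cells were sorted for activity of the locus. A signal on their arrays could therefore be looked for, but neither probe was detected there. What lies behind this pattern was not tested, and whether the labels were exchanged was not tested. Null and wildtype below mean the libraries labelled so, and the sign of every change rests on those labels.

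Array quality was even. The median intensity lay between 57.9 and 70.4, 43.8% to 46.1% of probes were detected per array, and 54 to 60 member probes were. The forelimb gene Tbx5 and the cartilage genes Sox9 and Col2a1 were detected on all 8 arrays, as was the hindlimb gene Tbx4. Tbx5 was near background, with means of 5.72 in null and 5.89 in wildtype. Tbx4 was brighter, with means of 9.38 in null and 8.79 in wildtype and every null array above every wildtype array. Its change was 0.60 ± 0.19 (adjusted p = 0.14). Detection of these genes thus does not settle limb identity. Null replicates 2 and 3 stood apart in Xist, the RNA of the inactive X chromosome, which lay at 10.12, 7.90, 6.05 and 10.44 in null replicates 1 to 4 and between 9.90 and 10.68 in wildtype. The mean of 5 Y-linked probes was 7.17, 7.63, 7.81 and 7.16 in the same null replicates and 6.80 to 7.07 in wildtype. Every null array thus lay above every wildtype array in this level. Fits that use it as a covariate therefore cannot cleanly separate it from genotype, and calls gained or lost in them decide nothing about genotype. Of the other cell types, platelet markers were lower in null for 9 of 10 tested genes (summed linear level 746.9 to 3060 in null, 10230 to 18540 in wildtype), macrophage and leukocyte markers for 10 of 12 (623.5 to 903.8 in null, 2057 to 3373 in wildtype) muscle markers for 5 of 7 (1530 to 1858 in null, 2342 to 2769 in wildtype) and endothelial markers for 3 of 9 (Esam, Sox18 and Cdh5; 1267 to 1516 in null, 1432 to 1895 in wildtype). Joint interzone markers were higher for 4 of 5 (14060 to 15320 in null, 7936 to 10350 in wildtype). Over all tested probes 1.85% were higher and 2.12% lower. Cartilage markers were higher for 1 of 8, fibroblast and tendon markers for 1 of 6 and forelimb mesenchyme markers for 1 of 5, with 0 lower. Of 5 epithelial and 5 erythroid markers 0 were called. Without the genes detected in a single genotype (C1qb, C1qc, Tyrobp and Wnt16) the macrophage count was 7 of 9 and the interzone count 3 of 4. The defining leukocyte gene Ptprc and the osteoclast genes Acp5, Calcr, Atp6v0d2 and Ocstamp were on no array above background. Cathepsin K (Ctsk), the 1 osteoclast marker tested, was detected on all 4 arrays of each genotype. Its change was 0.38 ± 0.11 (adjusted p = 0.11). The part of these cell types in the changes below was not tested, and in bulk samples fewer cells of a type and less RNA per cell cannot be told apart.

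Which members these cells expressed differed among the families. Of the 78 genes, 42 (53.8%) had a probe detected on at least 4 arrays and were tested, against 57.9% of all named genes, and 31 had no probe above background on any array. All 4 Adamtsl genes, 3 of 4 Timp genes, 12 of 17 Adamts genes and 11 of 21 Mmp genes were tested. Among Adam genes only 12 of 32 were, and those not tested included Adam2, Adam3, Adam18 and others known from sperm and testis. Collagenase-3 (Mmp13), an enzyme of hypertrophic cartilage and bone, was detected on 1 wildtype array with 1 of its 3 probes. Stromelysin-1 (Mmp3), matrilysin (Mmp7), neutrophil collagenase (Mmp8), the macrophage enzyme Mmp12 and Timp4 were on no array above background. Adam19, Adamts2 and Adamts5 had no named probe and are not analysed here.

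**Figure D1:**
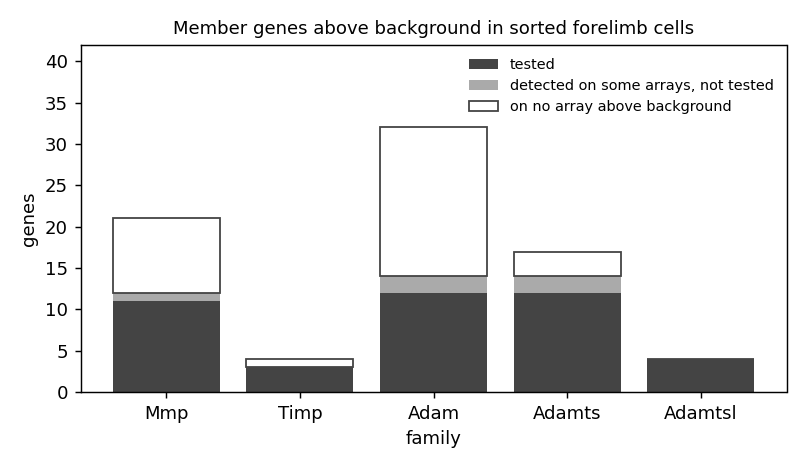
Number of member genes (y axis) in each family (x axis), split into genes tested, genes detected on some arrays but not tested, and genes on no array above background. All 4 Adamtsl genes were tested, while 12 of 32 Adam genes were.

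In the genotype comparison 3 of 58 tested member probes were higher in null and 0 were lower, with an adjusted p under 0.05. That was 5.17% higher, against 1.85% of all tested probes (380 of 20593), and 0% lower, against 2.12% (437). At an unadjusted p under 0.05 there were 8 of 58 member probes higher and 5 lower, beside 1751 higher and 1841 lower of all 20593 tested probes. The probes past the test were those of Adamts16, Adamts9 and Mmp2. In 8 member probes every null array lay above every wildtype array and in 2 every one lay below. Together these were 17.2% of the 58, against 12.3% of all tested probes. By direction, 5.94% of all tested probes were apart upward and 6.39% downward. The median change of the member probes was -0.02, beside 0.01 over all tested probes. By family the medians were 0.17 for the 18 Adamts probes, of which 12 lay above 0, -0.02 for the 6 Timp probes, -0.04 for the 13 Mmp probes, -0.08 for the 17 Adam probes and -0.31 for the 4 Adamtsl probes, all of which lay below 0. Over all tested probes 52.2% lay above 0.

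**Figure D2:**
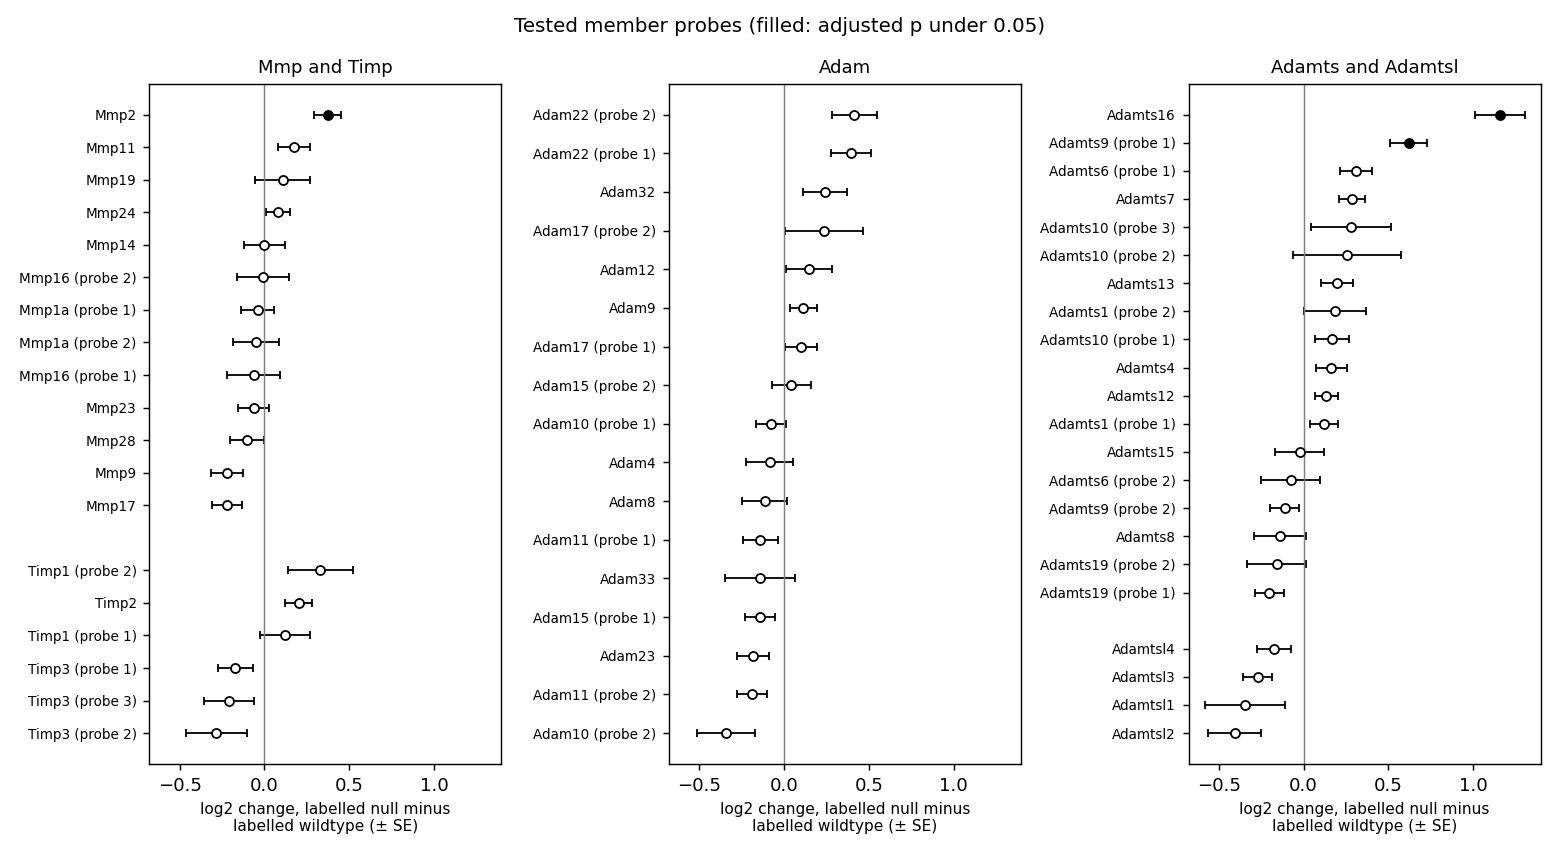
Log2 change (x axis, labelled null minus labelled wildtype, ± SE) of each of the 58 tested member probes (rows), by family and ordered by size; probes of one gene are numbered by their mean signal. Filled points, which passed the test, are Adamts16 at 1.16, Adamts9 probe 1 at 0.62 and Mmp2 at 0.37, and all 4 Adamtsl probes lie left of 0.

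Adamts16, a secreted protease best known from the developing gonad and kidney, had the largest change of the members. Its probe (ILMN_2987834) lay at 5.90, 6.51, 6.47 and 6.38 in null replicates 1 to 4 and at 5.07, 5.39, 5.20 and 4.99 in wildtype replicates 1 to 4. The lowest null array was thus above the highest wildtype array, with null replicate 1 below the other null arrays. The change was 1.16 ± 0.15 (adjusted p = 0.0031; exact permutation p = 0.029, the smallest that 4 against 4 arrays can give). The probe was near background, detected on all 4 null arrays and on 3 wildtype arrays, and 2 further probes of the gene were detected on none. Its size depended on the background treatment. The change was 0.71 without background correction, 0.61 with saddle-point normexp at an offset of 50 and 0.71 in the authors' table of processed values. The call held in all 21 alternative fits that tested the probe, the 8 that left out 1 array included.

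Adamts9, a versican-cutting protease whose mouse mutants have been used to study web regression between digits, changed by one of its probes. That probe (ILMN_1257724) lay at 10.76, 11.01, 11.07 and 10.73 in null and at 10.29, 10.07, 10.39 and 10.35 in wildtype. Groups did not overlap, and null replicates 2 and 3 were the highest of all. The change was 0.62 ± 0.11 (adjusted p = 0.014). The other probe (ILMN_1254543) lay at 6.50, 6.79, 6.76 and 6.67 in null and at 6.75, 6.82, 6.87 and 6.71 in wildtype, with a change of -0.11 ± 0.09 (adjusted p = 0.58), so the gene's probes disagreed. The call of the first probe held in each fit that left out 1 array (0.55 to 0.67) and was lost in 6 of 22 alternatives. With null replicates 2 and 3 both left out it was 0.47 (adjusted p = 0.058), and with the Y-linked level as a covariate 0.44 (adjusted p = 0.097).

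Mmp2, or gelatinase A, cuts type IV collagen and denatured collagens. It lay at 12.58, 12.55, 12.58 and 12.57 in null and at 12.05, 12.28, 12.19 and 12.29 in wildtype. The null arrays lay close together and all above wildtype, in which replicate 1 was lowest. The change was 0.37 ± 0.08 (adjusted p = 0.029). It kept its direction and its size of 0.32 to 0.40 in all fits, but the call was close to the threshold. It was lost in each of the 8 fits that left out 1 array, of either genotype (adjusted p = 0.051 to 0.082), and in 13 of 22 alternatives overall.

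**Figure D3:**
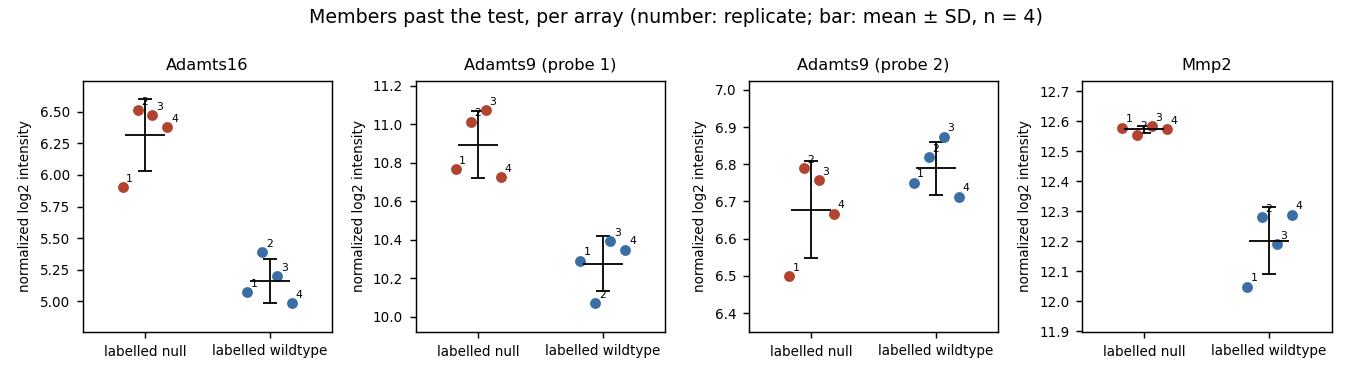
Normalized log2 intensity (y axis) on each array labelled null and labelled wildtype for the probes of Adamts16, Adamts9 and Mmp2; numbers are replicates and bars the mean ± SD of 4 arrays. The groups do not overlap for Adamts16, Adamts9 probe 1 and Mmp2, while those of Adamts9 probe 2 do.

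**Figure D4:**
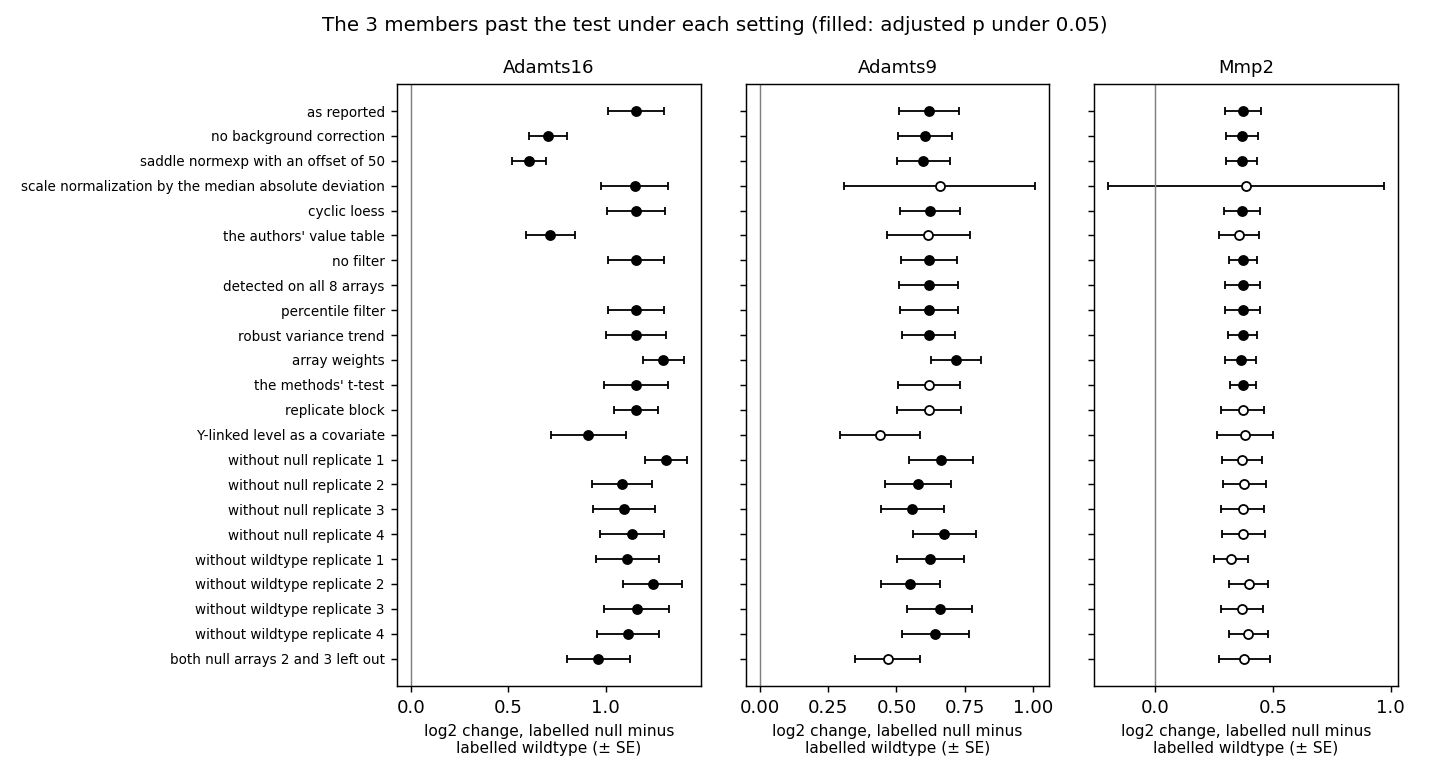
Log2 change (x axis, ± SE) of the same 3 members as reported and under each alternative setting (rows); filled points have an adjusted p under 0.05, and a row without a point is a setting that did not test the probe. Adamts16 stays filled throughout, Adamts9 is open in 6 rows and Mmp2 in 13.

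Mmp14, the membrane-type enzyme that activates Mmp2 on the cell surface, lay at 11.96, 11.74, 11.68 and 12.18 in null and at 11.87, 11.82, 12.07 and 11.80 in wildtype. Null replicates 2 and 3 were the lowest of all arrays and replicate 4 the highest, and the groups overlapped. The change was 0.00 ± 0.12 with a 95% interval of -0.27 to 0.27, and its sign turned between settings.

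Timp2, which both inhibits Mmp2 and takes part in its activation by Mmp14, lay at 11.99, 11.98, 12.02 and 12.19 in null and at 11.85, 11.80, 11.96 and 11.77 in wildtype. All null arrays were above all wildtype arrays. The change of 0.20 ± 0.08 did not pass the test (adjusted p = 0.24; exact permutation p = 0.029).

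Other inhibitors gave no call. Timp1 probes changed by 0.12 ± 0.15 and 0.33 ± 0.19 with overlapping groups. Timp3, a matrix-bound inhibitor that also acts on Adam17 and on aggrecan-cutting Adamts enzymes, had 3 probes at -0.17 ± 0.10, -0.28 ± 0.18 and -0.21 ± 0.15, the last of them detected on 1 null and 3 wildtype arrays.

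Among the other Mmp enzymes, gelatinase B (Mmp9) lay at 6.73, 6.91, 6.96 and 6.70 in null and at 7.09, 6.87, 7.12 and 7.11 in wildtype. Wildtype replicate 2 fell among the null arrays. The change was -0.22 ± 0.09 (adjusted p = 0.26), beside the macrophage markers whose summed level was lower in null. Stromelysin-3 (Mmp11) was at 0.17 ± 0.09 and the membrane-type Mmp16 at -0.06 ± 0.16 and -0.01 ± 0.15 with its 2 probes. Mmp17, a membrane-type enzyme held by a lipid anchor and named after its values were seen, had non-overlapping groups at 8.67, 8.40, 8.46 and 8.57 in null and 8.89, 8.73, 8.68 and 8.69 in wildtype. Its change was -0.22 ± 0.09 (adjusted p = 0.23), and it passed as lower with array weights alone. The tested probes of the remaining 5 Mmp genes (Mmp19, Mmp1a, Mmp23, Mmp24 and Mmp28) lay between -0.10 and 0.11. Further Mmp28 probes were near background and not tested. In ILMN_1218211 (mean 4.97 in null, 4.56 in wildtype) and ILMN_1233866 (4.80 and 4.41) all null arrays lay above all wildtype arrays. In ILMN_1260453 the groups overlapped.

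No Adam probe passed the test. The main sheddases Adam10 and Adam17, which release Notch ligands, EGF-family ligands and cytokines, had their first probes at -0.08 ± 0.09 and 0.10 ± 0.09, with 95% intervals of -0.28 to 0.12 and -0.11 to 0.31. Second probes were at -0.34 ± 0.17 and 0.23 ± 0.23. Adam12, known from muscle and bone precursors, was at 0.15 ± 0.13.

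Adam22, a catalytically inactive member known as a receptor of the secreted protein Lgi1 in the nervous system, was named after its values were seen because both tested probes moved alike. The first lay at 6.00, 5.65, 5.62 and 5.40 in null and at 5.30, 5.20, 5.30 and 5.30 in wildtype, without overlap. The second lay at 5.73, 5.11, 5.39 and 5.58 in null and at 5.12, 4.89, 5.11 and 5.03 in wildtype, where null replicate 2 reached into the wildtype range. Changes were 0.40 ± 0.12 and 0.41 ± 0.13 (adjusted p = 0.11 and 0.13). The first probe passed with array weights (0.37, adjusted p = 0.021). The second, detected on 4 null and 2 wildtype arrays, passed without null replicate 2 (0.52, adjusted p = 0.0498). It also passed with null replicates 2 and 3 both left out (0.60, adjusted p = 0.022) and with the Y-linked level as a covariate (0.69, adjusted p = 0.030). In this probe null replicates 2 and 3, the arrays with the highest Y-linked level, were the lowest null arrays. Those 3 fits thus raise its null level by construction, and their p-values are no support for a higher level. The related inactive members gave -0.14 ± 0.10 and -0.19 ± 0.09 with the probes of Adam11 and -0.18 ± 0.09 with that of Adam23. Probes of Adam4, Adam8, Adam9, Adam15, Adam32 and Adam33 lay between -0.14 and 0.24.

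The 18 Adamts probes stood for 12 genes, so they were not independent of each other. Of these probes 12 lay above 0 (66.7%, against 52.2% of all tested probes). In 5 all null arrays were above all wildtype arrays (27.8%, against 5.94% of all tested probes). Beside Adamts16 and Adamts9 these were Adamts7, Adamts12 and Adamts6, named after their values were seen. Adamts7 and Adamts12 are related enzymes that cut cartilage oligomeric matrix protein (Comp). Adamts7 lay at 8.46, 8.58, 8.51 and 8.69 in null and at 8.23, 8.33, 8.28 and 8.27 in wildtype, a change of 0.28 ± 0.08 (adjusted p = 0.077) that passed with array weights alone. Adamts12 lay between 10.94 and 11.07 in null and between 10.81 and 10.93 in wildtype, a change of 0.13 ± 0.07 (adjusted p = 0.37). Comp itself was at -0.21 ± 0.23 (adjusted p = 0.71). The probes of Adamts6, a relative of the microfibril protease Adamts10, disagreed at 0.31 ± 0.09 and -0.08 ± 0.17, and the first of them passed with array weights (0.38, adjusted p = 0.021). Adamts10 had 3 probes at 0.17 ± 0.10, 0.26 ± 0.32 and 0.28 ± 0.24, the last of them at 5.34 and 5.40 in wildtype replicates 2 and 4 against 6.43 and 6.18 in replicates 1 and 3. Adamts8, Adamts15 and both probes of Adamts19 lay between -0.20 and -0.02.

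The aggrecan- and versican-cutting Adamts1 and Adamts4 were measured at 0.12 ± 0.08 and 0.19 ± 0.18 with 2 probes of the first and at 0.16 ± 0.09 with 1 of the second. None passed the test. Their substrates versican (Vcan) and aggrecan (Acan) were at 0.17 ± 0.08 and 0.20 ± 0.09 (adjusted p = 0.33 and 0.32). Adamts13, which cuts von Willebrand factor, was at 0.20 ± 0.09 (adjusted p = 0.32). Its probe was near background, detected on 4 null arrays and 1 wildtype array.

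The 4 Adamtsl probes all had lower means in null, and none passed the test. Adamtsl2, a microfibril-associated protein mutated in human geleophysic dysplasia, lay at 5.20, 5.37, 5.17 and 4.70 in null and at 5.30, 5.48, 5.46 and 5.82 in wildtype. Groups overlapped at null replicate 2, and the change was -0.40 ± 0.16 (adjusted p = 0.22). Adamtsl3 had no overlap, at 6.02, 6.24, 6.21 and 6.05 in null and at 6.48, 6.46, 6.25 and 6.42 in wildtype, with a change of -0.27 ± 0.09 (adjusted p = 0.14). It passed only with the Y-linked level as a covariate (-0.45, adjusted p = 0.035). Adamtsl1 and Adamtsl4 were at -0.35 ± 0.24 and -0.17 ± 0.10.

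Several members split the null arrays into replicates 1 and 4 and replicates 2 and 3, the split seen in Xist. The mean level of the platelet markers split the same arrays, at 7.22, 6.06, 5.74 and 7.15 in null replicates 1 to 4. Which of these the members follow was not tested. They were picked after their values were seen. Adamtsl1 lay at 7.71, 6.92, 6.82 and 7.93 in null and at 7.58, 7.61, 7.91 and 7.66 in wildtype, so that replicates 2 and 3 alone were low. The reverse held for the second Timp3 probe, at 6.62, 7.28, 7.40 and 6.74 in null and 7.56, 7.18, 7.24 and 7.20 in wildtype. The second Adam10 probe lay at 5.35, 6.16, 6.14 and 5.71 in null and at 6.15, 6.07, 6.32 and 6.18 in wildtype, with replicates 1 and 4 low. The Timp3 and Adam10 probes were picked for high null replicates 2 and 3, the arrays with the highest Y-linked level. Leaving these arrays out, or fitting that level, thus lowers their null level by the choice itself. The p-values that follow are no support for a lower level. With null replicates 2 and 3 left out, these probes were at -0.61 and -0.64 (adjusted p = 0.037 and 0.030). With the Y-linked level as a covariate they were at -0.80 and -0.73 (adjusted p = 0.016 and 0.047). That covariate also gave -0.52 for the first Mmp16 probe (adjusted p = 0.034).

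**Figure D5:**
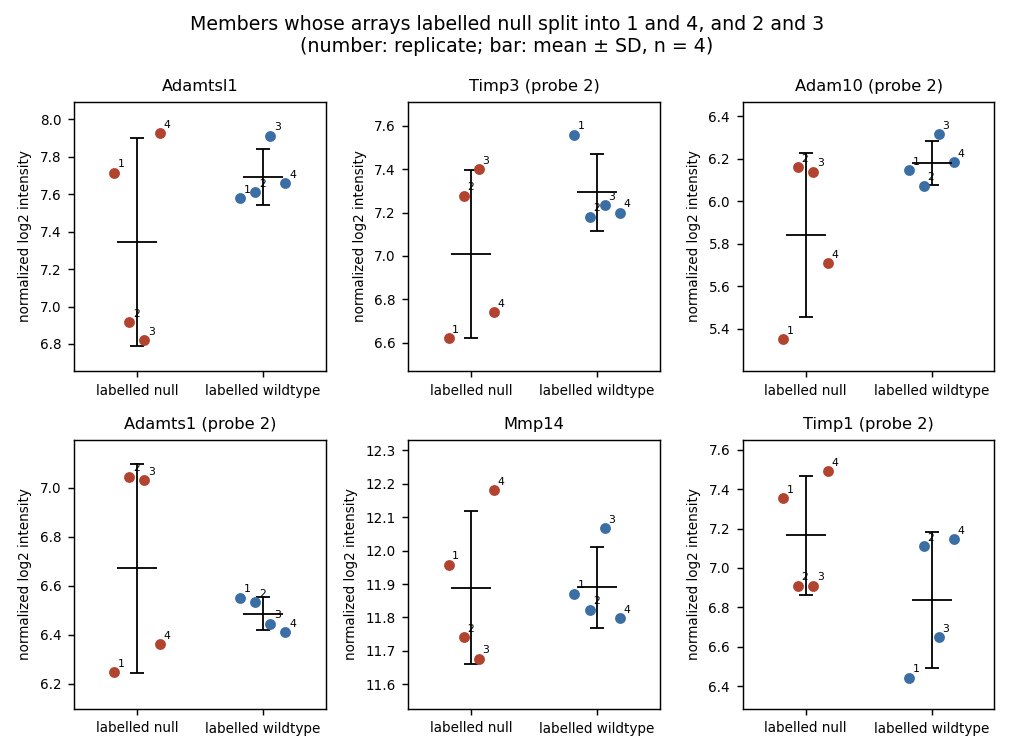
Normalized log2 intensity (y axis) on each array labelled null and labelled wildtype for 6 member probes picked for their spread within null; numbers are replicates and bars the mean ± SD of 4 arrays. Null replicates 2 and 3 sit apart from 1 and 4 in each panel, for Adamtsl1 at 6.82 and 6.92 against 7.71 and 7.93.

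Other proteases and inhibitors of the matrix gave 3 higher and 1 lower of 27 tested genes, with a median change of 0.01, beside 1.85% higher and 2.12% lower of all tested probes. Without Enpep, detected in a single genotype, there were 2 higher and 1 lower of 26. The secreted serine proteases Htra3 and Htra1 were higher in null. Htra3 lay at 7.30, 7.51, 7.57 and 7.40 in null and at 5.67, 6.03, 6.21 and 6.37 in wildtype (1.38 ± 0.14, adjusted p = 0.0011). Htra1 changed by 0.64 ± 0.13 (adjusted p = 0.023). The membrane peptidase gene Enpep was detected on 4 null arrays and 0 wildtype arrays, at least 1.44-fold higher in null; it entered the test only through the group in which it was detected. Cathepsin S (Ctss), a protease of macrophages, was lower, between 5.47 and 5.61 in null and between 6.84 and 7.22 in wildtype (-1.42 ± 0.10, adjusted p = 0.00015), beside the lower macrophage markers.

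Of the genes for known substrates, 1 of 26 tested was higher and 1 lower, with a median of 0.04, against the same shares of all tested probes. The Notch ligand Jag1 changed by 0.57 ± 0.10 (adjusted p = 0.014). Von Willebrand factor (Vwf), made by endothelial cells and megakaryocytes, was lower by -2.39 ± 0.31 (adjusted p = 0.0031), at 6.36, 5.40, 5.20 and 6.36 in null and 8.83, 7.96, 7.86 and 8.23 in wildtype, beside the lower platelet markers and the endothelial markers above. The cartilage collagen gene Col2a1 was at 0.32 ± 0.08 (adjusted p = 0.073).

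Promoters were searched on both strands for the spellings TAAGTG and TGAGTG of the Bapx1 motif, and for no other motif. RefSeq windows (GRCm38.p6, 250 bases before to 50 after the gene start) were at hand for 48 member genes, and 23.5% of their 51 windows held a match, close to 23.9% of 32851 windows of all genes. Among tested members 5 of 23 windows did (21.7%), those of Adam22, Adam8, Adamtsl2, Mmp23 and Timp2. The Adamts9 window held none; windows for Adamts16 and Mmp2 were not used here. Shown are the 30 bases around the match, 5′ to 3′ on the gene's strand with the match in capitals, for the 3 genes of these with an unadjusted p under 0.05. They start with Timp2 (chr11:118355562-118355591, minus strand, match from position -168), followed by Adam22 (chr5:8368115-8368144, minus strand, match from 28 bases after the start) and Adamtsl2 (chr2:27079169-27079198, plus strand, match from position -198).
Timp2: cgttttcgtgtgTGAGTGccaatccagcgc
Adam22: ggcgctagaagcCACTTAgctacaggctgg
Adamtsl2: cagtctcaggctCACTCActgatcctggac
The Timp2 match reads along the gene, and the other two are the motif on the opposite strand. Their changes had both signs, 0.20 for Timp2, 0.40 and 0.41 for Adam22 and -0.40 for Adamtsl2, and none passed the test.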

How the data were processed

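Probe intensity deposited by the authors was linear and never below 27.9, and was therefore treated as still holding background, although their methods name subtraction in GenomeStudio (no version given in the sources used here). Each intensity had a deposited detection fraction, which rose with brightness and was read as 1 minus the detection p. A further deposited table held log2 values that the authors had processed, with an unknown baseline per probe, and served as an alternative. Differences between arrays matched its rows to those of the intensity table (45281 pairs, tolerance 1e-05), and genes were named from the platform annotation (1 symbol for 34885 probes, several for 18, none for 10378).

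Intensities were background-corrected (nec, offset 16), quantile normalized and put on the log2 scale in limma 3.58.1 (R 4.3.3). Probes detected (p under 0.05) on 4 or more of the 8 arrays were tested with lmFit and eBayes, two-sided, with Benjamini-Hochberg adjustment and a threshold of 0.05. The number of arrays limits the precision. For genes, the probe with the highest mean stood for its gene in counts of lists. On simulated arrays, 33 of 100 probes changed 1.5-fold and 72 of 100 changed 2-fold were recovered, with 5 false among 110 calls of 20586 probes. The changed probes were drawn from the brighter part of the array, and noise was independent between probes. These rates thus need not hold for probes near background or where arrays differ in many probes together.

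Named were members past the threshold, members without overlap and a change over 0.5 in size, and a fixed set (Timp1 to Timp4, Mmp2, Mmp9, Mmp11, Mmp13, Mmp14, Mmp16, Adam10, Adam12, Adam17, Adam19, Adamts1, Adamts2, Adamts4, Adamts5, Adamts9, Adamtsl1 and Adamtsl2). The members and lists were chosen with earlier results of these data known. The alternatives were other background corrections, normalizations, filters and variance models, the processed table, array weights, the methods' t-test, a replicate block, a Y-linked covariate and leaving out arrays. Neither column names nor labels give the array chip, so it was not used as a block.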

Additional observations from a re-analysis of the deposited data

Results flagged for a closer look

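In 3 of 50 groups of 4 arrays, taken over the 25 named probes, 1 array lay far from the other 3 (a gap of 0.855 to 0.919 of the group's range); chance alone gives this in about 1 of 20 groups. The second Timp3 probe was high at 7.56 in wildtype replicate 1. Mmp9 was low at 6.87 in wildtype replicate 2. The second Mmp16 probe was low at 6.35 in null replicate 4.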

How the results depend on the processing

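Over the 25 named probes, 314 of the values under alternatives other than leaving out 1 array kept direction and side of the threshold, 11 lost and 5 gained a call, and 17 turned sign without a call; with 1 array left out these were 184, 8, 0 and 8. Members higher in null, 3 as reported, numbered 1 with scaling by the median absolute deviation, 1 with the authors' processed table, 1 with the replicate block and 6 with array weights, and 2 to 3 when 1 array was left out; members lower, 0 as reported, numbered 1 with array weights, 4 with the Y-linked covariate, 2 with null replicates 2 and 3 left out and 0 in each fit that left out 1 array. Over all tested probes (380 higher, 437 lower), the counts higher and lower were 31 and 84 with the median absolute deviation, 154 and 179 with the processed table, 919 and 958 with array weights, 171 and 207 with the methods' t-test, 190 and 244 with the replicate block, 758 and 983 with the Y-linked covariate, and 720 lower without null replicates 2 and 3. Leaving out 1 array gave 201 to 299 higher and 263 to 346 lower, both ranges set by the fits without null replicates 2 and 1; 6 of these 8 counts of higher and 4 of 8 counts of lower probes differed from the reported ones by over 1.5 times. Calls among other matrix proteases (4) became 7 with array weights and ranged from 3 to 5 with 1 array left out. Calls among substrates (2) became 4 without background correction, with the saddle-point normexp, with the robust trend or without null replicates 2 and 3, 1 with the median absolute deviation or the t-test, 6 with array weights and 5 with the Y-linked covariate, and stayed 2 with 1 array left out.

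Changes that turned sign were all of probes that did not pass the test. With the Y-linked covariate these were Adamts1 at -0.063 and -0.36, Adam17 at -0.041 and -0.26, Mmp14 at 0.31 and Adamtsl1 at 0.41. Without null replicates 2 and 3 they were Adam12 at -0.0090, Adam17 (second probe) at -0.17, Adamts1 (second probe) at -0.18, Mmp14 at 0.18 and Adamtsl1 at 0.13. Mmp14 was also at 0.055 with the median absolute deviation, 0.0085 with cyclic loess and 0.0024 with the processed table, and Mmp16 at 0.16 and 0.0023 with array weights and, for its second probe, 0.047 with the median absolute deviation. With 1 array left out, Mmp14 ranged from -0.097 to 0.070 and the Mmp16 probes from -0.17 to 0.067 and from -0.14 to 0.086. The cause of these differences was not tested.

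Deviations of same-numbered replicates of the genotypes correlated at 0.06, 0.24, -0.18 and -0.26 for replicates 1 to 4. The highest correlation of each null replicate with another number was 0.11, 0.07, 0.27 and 0.29. Null replicate 2 alone was thus most like its own number, and what the numbers stand for was not tested. With the replicate number as a block, Adamts9 and Mmp2 lost their calls (adjusted p = 0.053 and 0.12) and Adamts16 kept its call. Probes near background, such as those of Adamts16, Adam22 and Adamtsl2, give compressed changes that move with the background correction. At 4 arrays a group 1.5-fold changes were mostly missed in simulation, in which the changed probes were among the brighter ones.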
